A study of Mus musculus with 6 samples.

Results

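Livers of mice lacking Abcg8 were compared between diets with a sterol that carries a double bond at C22 of the side chain (ergosterol and stigmasterol) and diets with sitosterol, whose side chain is saturated (low and high sitosterol). The comparison used 4 of the 6 libraries in the series, 2 on each side, and the 13378 of 33639 genes that reached 1 CPM (estimated counts scaled to a fixed library total) in at least 1 liver. Its members are stress genes for which both libraries of one side lay beyond both libraries of the other. Of 233 stress genes listed in 12 groups, 231 reached the limit and 2 (Car9 and Egr3) did not. Of the 231, 44 were higher in both the ergosterol and stigmasterol livers, 66 were lower in both, and 121 overlapped between the sides. Of all genes tested, 19.7% were higher and 18.9% lower in this way.

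The series asks what diets rich in sterols that are not cholesterol do to liver transcripts. All mice were males with a global knockout of Abcg8, and until weaning all were kept on low sterol chow that held 0.005% ezetimibe, which blocks sterol uptake in the gut. From then on they ate a diet with ergosterol, stigmasterol, low sitosterol or high sitosterol for 12 weeks. Each diet is represented by the liver of 1 mouse, and the remaining 2 libraries, from adrenal glands of the low and high sitosterol diets, are not part of the comparison. Every liver thus lacks the transporter, and no animal with intact Abcg8 was analysed here. Age at death, strain, sterol dose, feeding state and time of day at death are not given in the sources used here, so no pair of diets can be matched on dose.

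Abcg8 and its partner Abcg5 pump plant sterols out of hepatocytes and enterocytes. Stigmasterol is sitosterol with the side-chain double bond added. Ergosterol, the main fungal sterol, has that double bond too, but its side chain bears a methyl where sitosterol has an ethyl group, and it has a further double bond in the rings. Cells answer unfolded protein in the cytosol through HSF1, which induces chaperones, and in the endoplasmic reticulum through IRE1, ATF6 and PERK, of which PERK also drives the integrated stress response through ATF4. In mouse liver many chaperone and metabolic transcripts also vary over the day with feeding and with the circadian clock. In the clock, ARNTL with CLOCK or NPAS2 activates the Per, Cry and Nr1d genes, whose products then hold it back, and outputs such as Dbp.

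The 4 liver libraries held 47789184 (ergosterol), 50573364 (stigmasterol), 49125137 (low sitosterol) and 48505003 (high sitosterol) estimated counts. Levels are given as scaled CPM, that is, CPM after TMM scaling, with factors between 0.824 and 1.371. A count of 0 allows up to 0.0593 to 0.0628 CPM, taking 3 counts as its limit, and such limits cover counting error only. Abcg8 had 8.82 and 11.4 scaled CPM in the ergosterol and stigmasterol livers, against 1.26 and 10.7 in the low and high sitosterol livers. Abcg5 had 72.7 and 129 against 11.9 and 190, and both genes overlapped between the sides. Since gene totals do not say which exons were read, and the annotated Abcg5 and Abcg8 genes overlap by 6710 bases on opposite strands, these values do not check the knockout.

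With edgeR's quasi-likelihood test and Benjamini-Hochberg adjustment over all 13378 genes, 0 genes were called, which is 0% of those tested. The smallest adjusted p by edgeR was 0.347, and 913 genes had an unadjusted edgeR p under 0.05 (485 higher and 428 lower in the ergosterol and stigmasterol livers). DESeq2 called 60 higher and 61 lower, 120 of which also stood apart by 1.5-fold in the same direction. The spread in both fits is that between 2 diets, 1 mouse each, within a side. In the edgeR fit the biological coefficient of variation was 0.468. A permutation of 2 against 2 libraries cannot give an exact two-sided p below 0.333. The levels below are therefore a description of 4 livers.

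Without overlap, at any gap, 2639 genes stood higher on the ergosterol and stigmasterol side (19.7% of those tested) and 2525 stood lower (18.9%). The 44 higher and 66 lower stress genes are 19% and 28.6% of 231. A stricter limit was set at 1.5-fold between the nearest libraries of the 2 sides. By that limit 404 of all genes stood higher (3.02%) and 284 lower (2.12%), and among stress genes 16 stood higher (6.93%) and 21 lower (9.09%). These are the genes called apart by 1.5-fold from here on. Just inside it lay P4ha1 with a gap of 1.54-fold, Stbd1 with 1.61-fold and Manf with 1.63-fold, and just outside it lay Bnip3 with 1.46-fold, Gstp1 with 1.43-fold and Txn1 with 1.41-fold.

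The balance of directions depends on scaling. The stigmasterol library had the highest TMM factor, and scaling by library totals in place of TMM moved the median log2 ratio of all genes by 0.38, to 0.45, against 0.08 with TMM. On that scale 924 genes stood higher and 97 lower by 1.5-fold, and among stress genes 24 stood higher and 9 lower. At any gap, 68 stress genes then stood higher and 38 lower, so the larger of the 2 counts changes sides with the scaling. Of all 13378 genes, 4849 stood higher and 631 lower at any gap on that scale, so all genes shifted the same way. List medians are therefore given beside the median of all genes. Leaving out 1 library lets more genes clear the limit, since fewer libraries need to be cleared. Counts of stress genes then were 48 higher and 54 lower without the ergosterol liver, 29 and 38 without the stigmasterol liver, 22 and 37 without the low sitosterol liver, and 31 and 40 without the high sitosterol liver. For all genes those counts were 2651 and 1473, 1070 and 1060, 900 and 651, and 1229 and 843 in the same order of libraries left out.

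The clock genes parted the sides by wide gaps. Of 19 core clock genes, 17 did not overlap, 6 higher and 11 lower in the ergosterol and stigmasterol livers. By 1.5-fold 14 stood apart, 4 higher and 10 lower. The shares at any gap were 31.6% and 57.9%, against 19.7% and 18.9% of all genes. Those by 1.5-fold were 21.1% and 52.6%, against 3.02% and 2.12%. Those that stood higher at any gap include the activators Arntl, Npas2 and Clock, with Cry1, Rora and Nfil3. The Per genes, the REV-ERB genes Nr1d1 and Nr1d2, the PAR bZIP factors Dbp and Tef, and the repressors Bhlhe40, Bhlhe41 and Ciart stood lower. The median log2 ratio of the list was -0.83 with TMM, against 0.08 for all genes, and -0.43 against 0.45 with library totals. By 1.5-fold, 5 stood higher and 7 lower with library totals, against 924 and 97 of all 13378 genes. In TPM + 0.1, 5 stood higher and 4 lower by that limit, against 1554 and 64 of all genes.

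Dbp (chr7:45705088-45710203 on GRCm38, plus strand), an output of the clock, had 6.16 and 7.99 scaled CPM in the ergosterol and stigmasterol livers, against 127 and 169 in the low and high sitosterol livers. Its log2 ratio was -4.39 ± 0.32 (SE), with the nearest libraries 15.95-fold apart. Ciart, a repressor of ARNTL and CLOCK, had 0.403 and 0.577 scaled CPM against 7.79 and 20.2. The sides were far from overlapping in both genes, and the 2 livers of a side lay close together for Dbp, while Ciart was higher in the high than in the low sitosterol liver. Npas2, a partner of ARNTL, ran the other way, with 3.85 and 6.10 scaled CPM in the ergosterol and stigmasterol livers, against 0.371 and 0.239 in the low and high sitosterol livers. Npas2 was below 1 CPM in both sitosterol livers and Ciart in both ergosterol and stigmasterol livers, so each was counted only through its higher side. Arntl had 12.8 and 15.8 scaled CPM against 3.71 and 1.78. Clock, whose transcript is known to vary less over the day, had 37.0 and 25.4 against 20.96 and 15.4, a gap of 1.21-fold.

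The repressors varied within the sides as well. Per1 had 15.9 and 17.9 scaled CPM in the ergosterol and stigmasterol livers, against 31.0 and 29.2 in the low and high sitosterol livers. Per2 had 5.58 and 2.70 scaled CPM against 11.1 and 26.5, and Per3 had 1.41 and 2.61 against 4.23 and 13.9, so the high sitosterol liver had the highest level of both. Nr1d1 had 91.5 and 29.6 scaled CPM against 192 and 141, with the stigmasterol liver lowest. Bhlhe40, a repressor of ARNTL and CLOCK, had 63.4 and 64.6 against 334 and 234. Cry1, whose transcript is known to peak later than those of the Per genes, stood higher, with 6.63 and 6.43 scaled CPM against 2.62 and 3.44. Hlf, a relative of Dbp and Tef, overlapped between the sides.

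**Figure D1:**
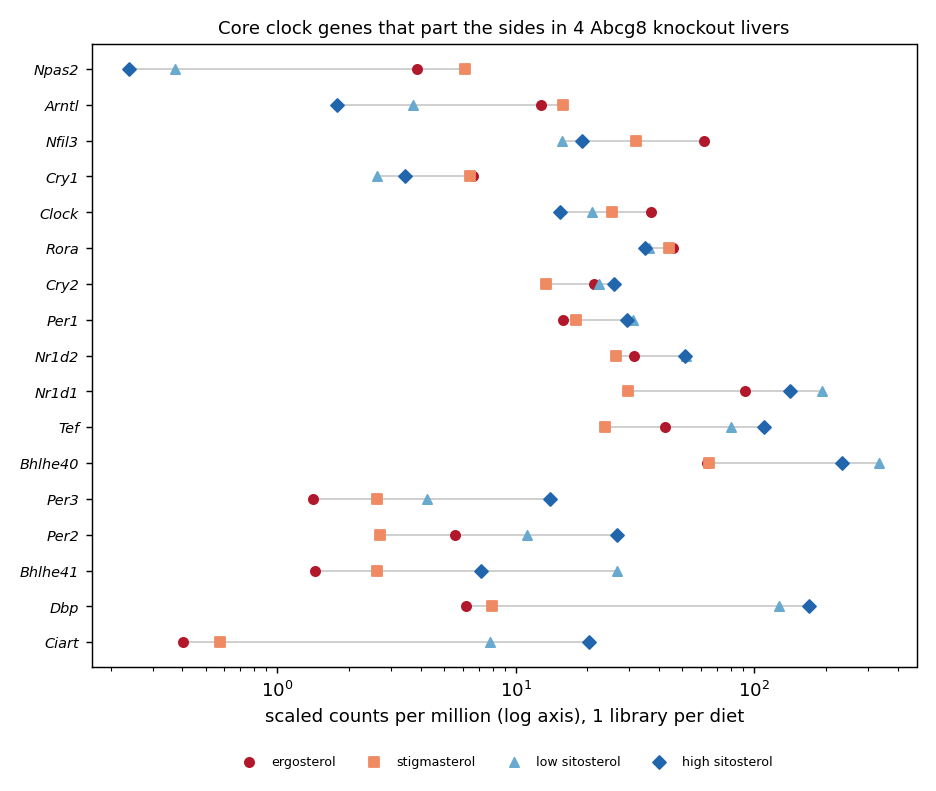
Levels of the 17 core clock genes that did not overlap between the sides, in scaled CPM on a log axis, with 1 point for each liver library, ergosterol and stigmasterol in red and orange and low and high sitosterol in blue. The red and orange points of Npas2 and Arntl lie right of both blue points, while those of Dbp and Ciart lie far left of them.

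Rhythmic genes outside the core loop gave 1 higher and 5 lower of 15 by 1.5-fold. These are 6.67% and 33.3%, against 3.02% and 2.12% of all genes. Alas1, the rate-limiting enzyme of heme synthesis, had 192 and 220 scaled CPM in the ergosterol and stigmasterol livers, against 963 and 824 in the low and high sitosterol livers. Coq10b had 15.5 and 14.9 against 52.2 and 46.3, and Usp2, a deubiquitinase under clock control, had 3.29 and 4.24 against 11.8 and 24.9. In each of these 3 genes the 2 libraries of a side were closer to each other, by ratio, than to either library of the other side. Other rhythmic genes overlapped, among them Nampt, Wee1, Tfrc and Elovl3. As time of death is not known, diet and time of day cannot be told apart for any gene below that varies over the day.

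ARNTL and its partners bind the E-box CACGTG. It was searched in RefSeq promoter windows (250 bases before to 50 after the start, GRCm38.p6), on both strands, and stood in 5 of 16 core clock genes with an entry (31.2%), against 8.09% of 27025 genes. The 5 are Per1, Cry1, Tef, Bhlhe41 and Ciart, of which Cry1 stood higher in the ergosterol and stigmasterol livers and the rest lower. All 5 hold matches within 200 bases of a start, and Ciart and Per1 are shown as examples. Each line is 5′ to 3′ on the strand of the gene, and capitals mark the E-box, 3 times in Ciart (chr3:95882229-95882428, minus strand) and 1 time in Per1 (chr11:69098749-69098948, plus strand).

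Ciart: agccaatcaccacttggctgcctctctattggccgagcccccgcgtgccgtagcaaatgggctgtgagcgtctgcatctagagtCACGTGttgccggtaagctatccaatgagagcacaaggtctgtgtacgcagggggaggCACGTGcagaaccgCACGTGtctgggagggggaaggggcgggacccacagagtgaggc

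Per1: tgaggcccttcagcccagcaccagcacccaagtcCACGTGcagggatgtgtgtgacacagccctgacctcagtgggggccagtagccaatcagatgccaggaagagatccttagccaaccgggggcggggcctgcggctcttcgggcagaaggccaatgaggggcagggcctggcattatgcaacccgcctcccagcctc

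No E-box letters stood in the same 200 bases of Dbp, Nr1d1, Npas2 or Arntl. The D-box TTATGNAA, bound by DBP and NFIL3, stood in 2 of 16 core clock genes (Per1 and Per3), against 3.99% of all genes. A match is a run of letters and does not show binding.

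Cytosolic heat shock genes had the lowest list median of the 12 stress groups in the ergosterol and stigmasterol livers. Of 23 tested, 19 were lower without overlap, 0 were higher and 4 overlapped (Cryab, Hspa2, Hsf2 and Dnajb4). The lower share at any gap was 82.6%, against 18.9% of all genes. By 1.5-fold, 11 of 23 stood apart, all lower (47.8% of the list, against 2.12% of all genes). The median log2 ratio was -1.06, against 0.08 for all genes, and -0.70 against 0.45 with library totals, where 5 stood lower by 1.5-fold. In TPM, 3 stood lower by 1.5-fold with a pseudocount of 0.1 and 2 with a pseudocount of 1, and at any gap 10 stood lower and 4 higher. Of all 13378 genes, 97 stood lower by 1.5-fold with library totals, 64 in TPM + 0.1 and 49 in TPM + 1. At any gap in TPM, 366 of all genes stood lower and 6272 higher. The count of heat shock genes lower by 1.5-fold with TMM was 18 without the ergosterol liver and 11 or 12 without any other library.

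The inducible HSP70 genes had the widest range. Hspa1b (chr17:34956436-34959238, minus strand) had 46.3 and 7.14 scaled CPM in the ergosterol and stigmasterol livers, against 75.5 and 800 in the low and high sitosterol livers. Hspa1a had 4.10 and 2.31 against 9.14 and 453, and reads of these near-identical genes cannot be separated with certainty. The high sitosterol liver stood far above the other 3 in both genes. Without it the log2 ratio of Hspa1a was -1.52, against -6.18 ± 1.93 (SE) with it, and that of Hspa1b was -1.5, against -4.03 ± 1.5.

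Other HSP70 and HSP90 genes and Stip1 had a smaller range. Hspa8, the constitutive HSP70, had 1436 and 851 scaled CPM in the ergosterol and stigmasterol livers, against 2615 and 2952 in the low and high sitosterol livers. In TPM, which is per length, Hspa8 had 820 and 752 against 1385 and 2010, so it was the more abundant transcript beside Hspa1b, which had 19.6 and 4.41 TPM against 23.9 and 307. Hsp90aa1, the inducible HSP90, had 161 and 168 scaled CPM against 332 and 590, with the high sitosterol liver highest. The constitutive counterpart Hsp90ab1 had 1024 and 770 against 1307 and 1332, a gap under 1.5-fold. Stip1, which links HSP70 to HSP90, had 58.1 and 48.0 against 113 and 122. For Hspa8, Hsp90aa1 and Stip1 the sitosterol levels were apart from the others whichever of the 2 sitosterol livers is taken.

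The cofactors and small heat shock proteins followed. Dnajb1, an HSP40 cochaperone, had 24.9 and 15.1 scaled CPM in the ergosterol and stigmasterol livers, against 48.5 and 253 in the low and high sitosterol livers. Hsph1, a nucleotide exchange factor for HSP70, had 58.4 and 24.9 against 113 and 301. Hspb1 had 45.7 and 33.5 against 82.2 and 341. In these 3 genes the high sitosterol liver was again the highest, and the low sitosterol liver was above both the others. Hspb8 had 177 and 154 against 337 and 352, Cacybp had 24.7 and 21.5 against 44.6 and 51.4, and Dnaja1 had 146 and 90.9 against 263 and 432. Hsf1 itself differed little, at 12.2 and 11.6 against 13.8 and 14.4 scaled CPM. Bag3, an HSP70 cochaperone, was highest in the high sitosterol liver, with 42.5 and 26.9 against 44.3 and 118.

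**Figure D2:**
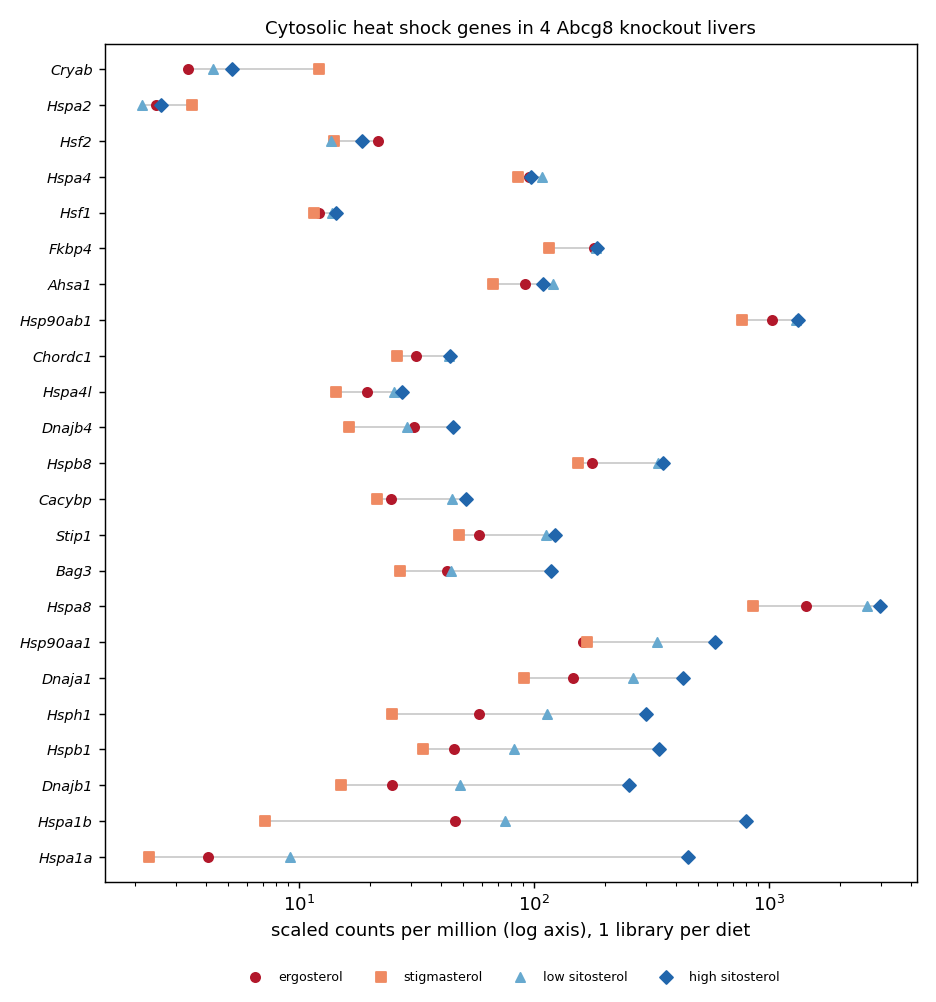
Levels of the 23 cytosolic heat shock genes in scaled CPM on a log axis, 1 point for each liver library. The ergosterol and stigmasterol points lie left of both sitosterol points in 19 genes with TMM scaling. Counts on other scales are 14 left and 1 right with library totals, and 10 left and 4 right in TPM. Of all 13378 genes, 631 stood lower and 4849 higher with library totals, and 366 lower and 6272 higher in TPM. The high sitosterol point of Hspa1a stands far to the right at 453.

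HSF1 binds arrays of the element nGAAn. An inverted pair of it, GAANNTTC, was searched in the same promoter windows. These letters stood in 9 of 18 heat shock genes with an entry (50%), against 9.04% of 27025 genes. They stood in 0 of 16 core clock genes and 0 of 19 unfolded protein response genes. Pairs with the elements in the opposite order were not searched. A gene without GAANNTTC may therefore still hold another form of the array. Hspb1 (chr5:135887719-135887918, plus strand) and Hspa1b (chr17:34959239-34959438, minus strand) are shown, since both stood lower in the ergosterol and stigmasterol livers and hold the pair, in capitals, close to the start.

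Hspb1: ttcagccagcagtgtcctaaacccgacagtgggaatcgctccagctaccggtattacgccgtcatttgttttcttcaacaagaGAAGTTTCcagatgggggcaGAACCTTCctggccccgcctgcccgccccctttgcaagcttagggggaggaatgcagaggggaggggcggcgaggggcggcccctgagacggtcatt

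Hspa1b: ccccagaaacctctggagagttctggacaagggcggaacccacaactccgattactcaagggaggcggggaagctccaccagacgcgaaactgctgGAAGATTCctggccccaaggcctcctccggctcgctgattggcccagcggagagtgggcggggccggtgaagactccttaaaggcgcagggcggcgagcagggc

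The Hspb1 window holds 2 matches and the Hspa1b window 1. Dnajb1 held no match in these windows, so GAANNTTC is not shared by all genes of the group that stood lower. Hsph1 is among the 9 with a match, which lies outside the 200 bases before its starts.

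Unfolded protein response genes stood lower too, by smaller gaps. Of 23 tested, 12 were lower without overlap, 0 were higher and 11 overlapped, and 3 stood apart by 1.5-fold, all lower. The lower shares were 52.2% and 13%, against 18.9% and 2.12% of all genes. At any gap 11 stood lower and 2 higher with library totals, and 7 lower and 5 higher in TPM. Of all 13378 genes, 631 stood lower and 4849 higher with library totals, and 366 lower and 6272 higher in TPM. By 1.5-fold, 2 of the list stood lower on either scale. Of all genes, 97 did with library totals, 64 in TPM + 0.1 and 49 in TPM + 1. The median log2 ratio of the list was -0.74 with TMM, against 0.08 for all genes, and -0.37 against 0.45 with library totals. Derl3, a component of the degradation machinery of the endoplasmic reticulum, had 1.93 and 0.908 scaled CPM in the ergosterol and stigmasterol livers, against 7.14 and 9.01 in the low and high sitosterol livers. Sdf2l1, a cofactor of the HSP70 of that compartment, had 22.8 and 11.8 against 74.7 and 43.4. Manf, a secreted protein induced by this stress, had 73.5 and 59.8 against 244 and 120. Here the low sitosterol liver was the higher of the 2 sitosterol livers in Sdf2l1 and Manf, unlike the heat shock genes named above.

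That order held for the central chaperone and its factor. Hspa5 (BiP) had 592 and 422 scaled CPM in the ergosterol and stigmasterol livers, against 1345 and 641 in the low and high sitosterol livers, so that the ergosterol and high sitosterol livers were only 1.08-fold apart. Xbp1, the factor activated by IRE1, had 161 and 146 against 487 and 215. The number of genes apart by 1.5-fold was 12 without the ergosterol liver and 13 without the high sitosterol liver, and 3 without either of the others. Reads of Manf cannot be fully assigned, since its annotated span overlaps Dcaf1 and Rbm15b and strand was not kept in the libraries.

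The integrated stress response was mixed, with 8 of 27 genes higher (29.6%), 3 lower (11.1%) and 16 overlapping. By 1.5-fold, 4 stood higher (14.8%) and 1 lower (3.7%). Of all genes, 19.7% stood higher and 18.9% lower at any gap, and 3.02% and 2.12% by 1.5-fold. With library totals, 9 stood higher and 0 lower at any gap, on a scale where 4849 of all 13378 genes stood higher and 631 lower. Fgf21, a hormone made by the liver under amino acid stress and in fasting, had 11.3 and 17.5 scaled CPM in the ergosterol and stigmasterol livers, against 4.89 and 5.35 in the low and high sitosterol livers. Slc7a5, a transporter of large neutral amino acids, had 3.43 and 4.09 against 1.61 and 1.24. Vldlr, a lipoprotein receptor, had 5.42 and 2.39 against 1.01 and 0.479. These 3 genes were low in both sitosterol livers and did not overlap. Vldlr was below 1 CPM in both sitosterol livers, so it was counted only through its higher side. Aldh1l2, a mitochondrial folate enzyme, reached 1 CPM in the stigmasterol liver alone, with 28 and 56 estimated counts against 5 and 5, and had to be high there to be counted. With 1 CPM required in at least 2 livers, 3 genes of the list stood higher. Stbd1, which tethers glycogen, stood lower, with 68.4 and 70.3 scaled CPM against 116 and 114.

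The factor Atf4 and its serine and asparagine synthesis targets did not follow. Atf4 had 58.7 and 74.7 scaled CPM in the ergosterol and stigmasterol livers, against 86.1 and 78.1 in the low and high sitosterol livers, a gap of 1.04-fold. Asns had 0.202 and 12.7 against 2.45 and 3.63, Psat1 had 0.739 and 11.6 against 2.79 and 2.33, and Phgdh had 0.134 and 4.97 against 0.544 and 0.348. For these 3 enzymes the stigmasterol liver was the highest and the ergosterol liver the lowest of the 4, so the 2 livers on the C22-unsaturated side stood at opposite ends. Ddit3 (CHOP) overlapped, at 6.92 and 13.0 against 9.19 and 24.6.

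Among 34 NRF2 targets, 13 stood higher (38.2%), 6 lower (17.6%) and 15 overlapped, against 19.7% and 18.9% of all genes. By 1.5-fold, 3 stood higher (8.82%, against 3.02% of all genes). The median log2 ratio was 0.38, against 0.08 for all genes. Gsta4, a glutathione transferase for lipid aldehydes, had 47.4 and 59.6 scaled CPM in the ergosterol and stigmasterol livers, against 20.5 and 13.3 in the low and high sitosterol livers. Gsta2 had 21.4 and 73.3 against 4.89 and 10.2, with the caveat that alpha-class transferases are close in sequence. Abcc3, a basolateral exporter of conjugates, had 241 and 120 against 55.4 and 64.4. The sides did not overlap in these 3 genes, and both sitosterol livers were low. Gclc, the catalytic subunit of glutathione synthesis, also stood higher, by less than 1.5-fold, at 228 and 138 against 104 and 98.1. Nqo1 and Hmox1, which are often used as NRF2 markers, overlapped, with Nqo1 at 4.14 and 10.9 against 2.40 and 4.46 and Hmox1 at 20.6 and 37.1 against 23.8 and 83.2. The sensor Keap1 and Nfe2l2 itself overlapped as well. Of 12 antioxidant enzymes, 1 stood higher (8.33%) and 4 lower (33.3%) at any gap, and 0 by 1.5-fold. Their median was -0.14 with TMM, against 0.08 for all genes, and 0.14 with library totals, against 0.45.

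Metallothioneins varied by library rather than by side. Mt1 had 34.2 and 392 scaled CPM in the ergosterol and stigmasterol livers, against 124 and 921 in the low and high sitosterol livers, and Mt2 had 8.15 and 243 against 71.2 and 514. The ergosterol liver was the lowest and the high sitosterol liver the highest in both. Of the 8 genes of metal handling, 0 stood apart by 1.5-fold.

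Of 22 immediate early and growth arrest genes tested, 9 stood higher in the ergosterol and stigmasterol livers, 3 lower and 10 overlapped. With library totals 10 stood higher and 0 lower, against 4849 and 631 of all 13378 genes. The 9 and 3 genes are 40.9% and 13.6%, against 19.7% and 18.9% of all genes. By 1.5-fold 4 stood higher (18.2%, against 3.02% of all genes) and 0 lower. The median log2 ratio was 0.48, against 0.08 for all genes. Gadd45g (chr13:51846678-51848468, plus strand), a growth arrest gene, had 192 and 105 scaled CPM in the ergosterol and stigmasterol livers, against 16.04 and 10.8 in the low and high sitosterol livers. Its log2 ratio was 3.47 ± 0.44 (SE), and the nearest libraries were 6.57-fold apart. Myc had 34.9 and 33.0 scaled CPM against 2.97 and 9.03. Both ergosterol and stigmasterol livers were several fold above either sitosterol liver in these 2 genes. Zfp36, which destabilises inflammatory transcripts, had 273 and 96.5 against 50.4 and 43.2, and Egr1 had 184 and 93.6 against 54.4 and 35.9. Fos and Jun overlapped, with Fos at 29.5 and 6.24 against 4.55 and 9.60 and Jun at 98.9 and 50.8 against 22.1 and 74.3.

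Of 19 p53 targets, 7 stood higher (36.8%, against 19.7% of all genes), 0 lower and 12 overlapped. By 1.5-fold, 2 stood higher (10.5%, against 3.02% of all genes). Cdkn1a, the cell cycle inhibitor p21, had 35.9 and 84.6 scaled CPM in the ergosterol and stigmasterol livers, against 11.0 and 20.8 in the low and high sitosterol livers. Trp53inp1 had 64.96 and 72.8 against 20.1 and 35.8. Mdm2, a further p53 target, had 22.3 and 21.5 against 15.6 and 19.2, a gap of 1.12-fold, and Bax overlapped. Both Cdkn1a and Myc are also known to vary over the day in mouse liver.

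**Figure D3:**
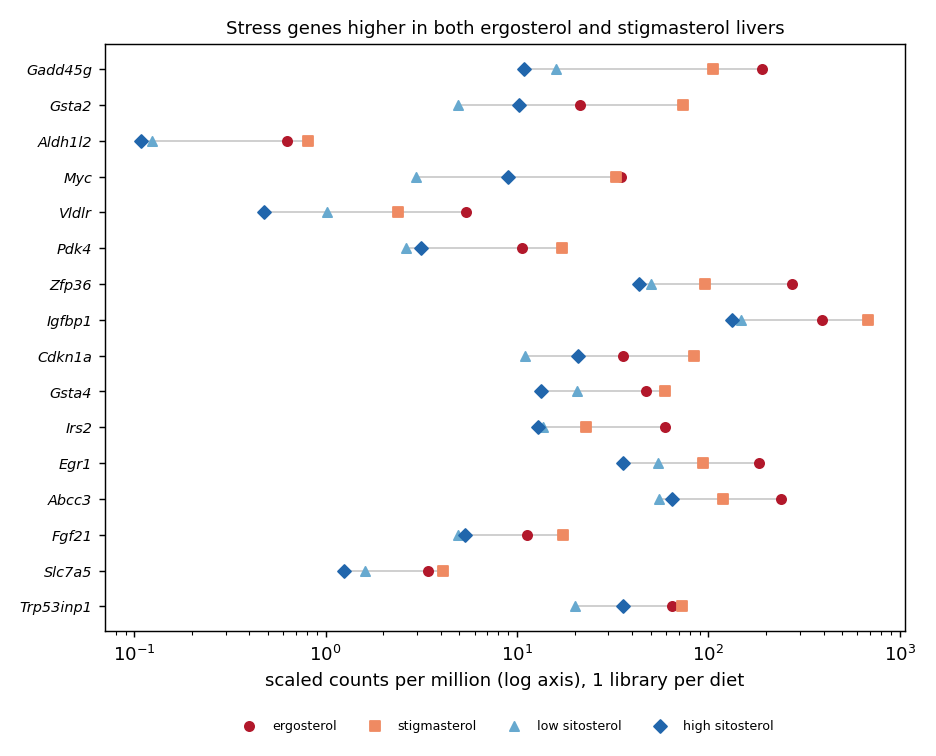
Levels in scaled CPM on a log axis of the 16 stress genes that stood higher in the ergosterol and stigmasterol livers by 1.5-fold or more with TMM scaling, 1 point for each liver library. They come from the integrated stress response, NRF2, immediate early, p53, and glucocorticoid and fasting lists, and Gadd45g at the top has both red and orange points above 100 scaled CPM.

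Hypoxia genes split, with 2 higher (11.8%), 6 lower (35.3%) and 9 overlapping of 17, against 19.7% and 18.9% of all genes. By 1.5-fold, 2 stood lower (11.8%, against 2.12% of all genes). Pfkfb3, which makes the activator of phosphofructokinase, had 7.41 and 9.52 scaled CPM in the ergosterol and stigmasterol livers, against 81.9 and 20.2 in the low and high sitosterol livers. P4ha1, a collagen prolyl hydroxylase, had 13.3 and 13.6 against 20.9 and 56.7. The low sitosterol liver was the highest for Pfkfb3 and the high sitosterol liver for P4ha1. Among 9 mitochondrial chaperones and proteases, Hspe1 (HSP10) alone stood apart by 1.5-fold, with 111 and 111 against 192 and 218, while its partner Hspd1 (HSP60) had 401 and 360 against 423 and 508. Of 22 acute phase genes, 4 stood lower and 18 overlapped, and the lower share, 18.2%, was near the 18.9% of all genes. Orm1 alone stood lower by 1.5-fold, at 728 and 523 against 1276 and 1283. The inflammatory acute phase gene Saa1 overlapped, at 81.6 and 123 against 58.7 and 155. With TMM the medians of these 3 lists were -0.01 for hypoxia, -0.12 for the mitochondrial list and -0.29 for the acute phase list, against 0.08 for all genes. With library totals they were 0.43, 0.25 and 0.09, against 0.45 for all genes. All 3 thus lay below the median of all genes on both scales.

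Glucocorticoid and fasting genes stood on both sides, 3 higher (20%) and 2 lower (13.3%) of 15 by 1.5-fold. All genes gave 3.02% and 2.12%. Fkbp5, a cochaperone of HSP90 induced by glucocorticoids, had 27.4 and 31.6 scaled CPM in the ergosterol and stigmasterol livers, against 102 and 138 in the low and high sitosterol livers. Lpin1, a phosphatidate phosphatase and nuclear coactivator, had 134 and 43.6 against 793 and 427. Pdk4, which blocks pyruvate dehydrogenase in fasting, had 10.7 and 17.2 against 2.64 and 3.16. Fkbp5 was low and Pdk4 was high in both livers of the ergosterol and stigmasterol side. Igfbp1 had 391 and 687 against 148 and 134, and Irs2, the insulin receptor substrate repressed by insulin, had 59.3 and 23.0 against 13.7 and 12.9. The gluconeogenic genes Pck1 and G6pc overlapped, with G6pc at 460 and 236 against 507 and 42.7, as did the glucocorticoid target Tat.

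**Figure D4:**
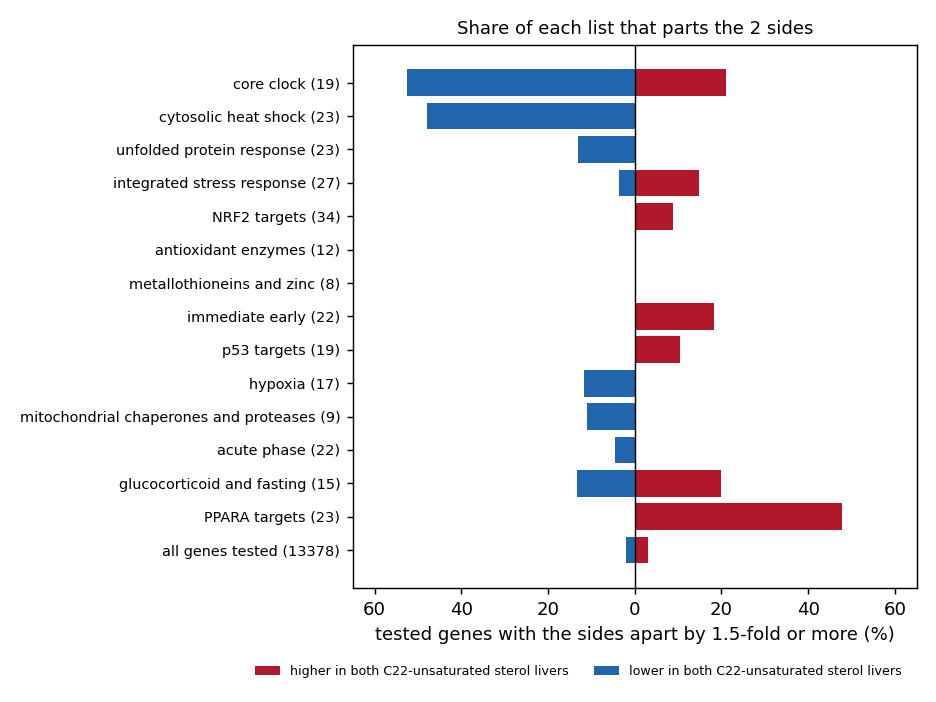
Percent of the tested genes of each list with the sides apart by 1.5-fold or more (TMM scaling), lower in the ergosterol and stigmasterol livers to the left and higher to the right, with the number tested in brackets. The core clock and cytosolic heat shock bars reach 52.6% and 47.8% to the left, and all 13378 genes give 2.12% to the left and 3.02% to the right. With library totals, 7 clock and 5 heat shock genes stood lower, and in TPM + 0.1, 4 and 3 did. Of all genes, 97 stood lower with library totals and 64 in TPM + 0.1.

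Targets of PPARA, the fatty acid receptor that drives oxidation in fasting, were set beside the stress genes. Of 23, 12 stood higher, 0 lower and 11 overlapped, and 11 stood higher by 1.5-fold. With library totals 12 stood higher by 1.5-fold, against 924 of all 13378 genes. With TMM the higher shares were 52.2% and 47.8%, against 19.7% and 3.02% of all genes. The median log2 ratio was 0.84, against 0.08 for all genes. Acot1 (chr12:84009490-84018371, plus strand), a cytosolic acyl-CoA thioesterase, had 83.8 and 72.7 scaled CPM in the ergosterol and stigmasterol livers, against 10.3 and 9.36 in the low and high sitosterol livers. Its log2 ratio was 2.99 ± 0.22 (SE). Cyp4a14, a fatty acid omega-hydroxylase, had 1009 and 371 against 14.3 and 60.98, and Ehhadh, a peroxisomal oxidation enzyme, had 557 and 649 against 162 and 165. In all 3 genes the lower liver of the ergosterol and stigmasterol side was at least 3.38-fold above the higher sitosterol liver. Acot and Cyp4a genes have near-identical copies, so their single values are uncertain.

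Lipid droplet genes belonged to the same group. Cidec had 16.6 and 63.4 scaled CPM in the ergosterol and stigmasterol livers, against 5.83 and 4.90 in the low and high sitosterol livers, and Plin2 had 890 and 797 against 474 and 295. Other oxidation genes overlapped, among them Cpt1a, which admits fatty acids to mitochondria, at 398 and 273 against 306 and 263. Ppara itself was high in 1 library, at 66.8 and 16.8 against 17.2 and 17.7. Several of these targets are rhythmic or respond to fasting in mouse liver, and the part of feeding state was not tested.

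**Figure D5:**
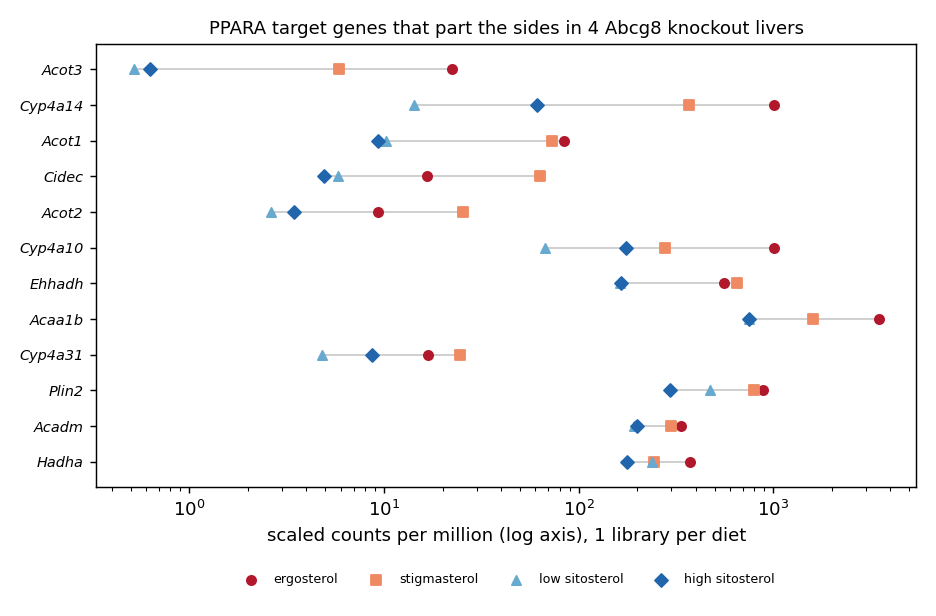
Levels of the 12 PPARA target genes that did not overlap between the sides, in scaled CPM on a log axis, 1 point for each liver library. Acot3, Cyp4a14 and Acot1 have both ergosterol and stigmasterol points well right of both sitosterol points.

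Sterol genes parted the sides less. Of 20 genes of cholesterol synthesis, 1 stood higher (5%), 4 lower (20%) and 15 overlapped, with 0 apart by 1.5-fold. The lower share was near that of all genes, of which 19.7% stood higher and 18.9% lower. Sqle, the squalene epoxidase, came closest, with 14.0 and 7.22 scaled CPM in the ergosterol and stigmasterol livers, against 41.3 and 20.5 in the low and high sitosterol livers, a gap of 1.47-fold. Of 15 LXR targets, 13 overlapped, among them Abca1 at 110 and 97.7 against 102 and 87.1. Of all 13378 genes tested, 8214 overlapped. Cyp7a1, which starts the main route to bile acids, overlapped at 145 and 36.6 against 13.5 and 71.2, while Cyp39a1, an oxysterol hydroxylase, stood higher at 17.2 and 25.7 against 8.01 and 10.01.

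Further genes among the 10 highest and 10 lowest ratios belonged to none of the stress lists. Thrsp, a lipogenic gene induced by feeding, had 272 and 40.5 scaled CPM in the ergosterol and stigmasterol livers, against 1385 and 676 in the low and high sitosterol livers. Angptl8, a feeding-induced inhibitor of lipoprotein lipase, had 26.7 and 20.5 against 257 and 81.1, and Serpina12, the adipokine vaspin, had 68.3 and 22.02 against 410 and 156. All 3 were lower in both livers of the ergosterol and stigmasterol side. Rnf125, a ubiquitin ligase, had 44.3 and 18.9 against 4.28 and 3.66, and Enc1 had 12.1 and 24.0 against 2.002 and 4.05.

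The makeup of the libraries was read from marker lists. Hepatocyte genes led all 4 livers, with summed levels of 123480 and 67933 scaled CPM in the ergosterol and stigmasterol livers, against 131540 and 163400 in the low and high sitosterol livers. The stigmasterol liver stood apart from the other 3 in cholangiocyte markers (128, against 18.9 to 26.8), stellate and matrix genes (1338, against 245 to 314) and proliferation genes (325, against 62.6 to 101). In bulk tissue, more cells of a type and more RNA per cell cannot be told apart. None of those 3 lists had a member apart by 1.5-fold between the sides. Kupffer cell markers summed to 657 and 936 against 424 and 1267. The low sitosterol liver held 119 scaled CPM of 9 adrenal cortex genes, against 5.04 to 11.6 in the other 3. Cyp11b1, at 14.5 in the low sitosterol liver, was at or below 0.649 in the others. Of the 9 genes, 2 and 1 had no count in the ergosterol and stigmasterol livers, against 0 and 2 in the sitosterol livers (low, then high). The part of these differences in the stress genes was not tested.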

How the data were processed

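RNA sequencing of 4 livers and 2 adrenal glands was used through 2 tables, 1 of estimated counts and 1 of TPM per gene symbol, as the authors deposited them. Deposited estimated counts had decimals in 39.1% to 49.27% of genes and were rounded to whole numbers. TPM values were deposited by the authors per library and served for levels between genes and as an alternative. Per the submitters' processing notes, kallisto 0.43.1, HISAT2 2.0.5 and Trimmomatic 0.33 were used with mm10; neither their roles nor the annotation are given in the sources used here. Libraries came from the TruSeq RNA kit, per the labels' protocols, and this kit keeps no strand, so reads of overlapping genes cannot be told apart.

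Genes at 1 CPM or more in at least 1 liver were kept. A gene below that level in both livers of a side was therefore kept only through the side where it was high. The ergosterol and stigmasterol livers were tested against the low and high sitosterol livers with edgeR 4.0.16 (R 4.3.3; TMM, quasi-likelihood test, Benjamini-Hochberg adjustment, threshold 0.05), after a check on simulated counts. Nothing says that libraries of a side are replicates of 1 condition: each is 1 mouse on its own diet. A gene stood apart by 1.5-fold when the lowest scaled CPM of one side was at least 1.5 times the highest of the other, with a library at 0 set to 3 counts. Alternatives were other scalings, filters, gaps, TPM with a pseudocount of 0.1 or 1 in limma 3.58.1, DESeq2 1.42.0, all 6 libraries, and leaving out each library. Coordinates are from GENCODE M21 (GRCm38), which matched 32158 gene symbols. Members and lists were chosen with earlier results of these data known. Genes were named by rule (Abcg8, Abcg5, 11 clock genes, the 10 highest and 10 lowest ratios among genes apart by 1.5-fold with at least 10 scaled CPM in both higher libraries, and up to 6 members of a stress list or 4 of another list by gap); further members are named as examples chosen after their values were seen. Some genes of these lists are not reported here by name.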

Additional observations from a re-analysis of the deposited data

How the results depend on the processing

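The edgeR test called 0 genes in each direction under library totals, size factors, the stricter filter and all 6 libraries. Limma on TPM also called 0 in each direction. Without a filter edgeR called 2 higher and 3 lower, and DESeq2 called 60 higher and 61 lower. Genes higher by 1.5-fold numbered 404, and 924 with library totals, 1554 with TPM + 0.1, 877 with TPM + 1, 2639 at any gap, 138 at 2-fold and 900 to 2651 with a library left out. Genes lower numbered 284, and 97, 64, 49, 2525, 74 and 651 to 1473 under the same settings, and 611 without a filter. Stress genes higher numbered 16, and 24 with library totals, 32 with TPM + 0.1, 30 with TPM + 1, 44 at any gap, 10 at 2-fold and 22 to 48 with a library left out. Stress genes lower numbered 21, and 9 with library totals, 7 with TPM + 0.1, 6 with TPM + 1, 66 at any gap, 5 at 2-fold and 37 to 54 with a library left out. A wider or narrower gap and fewer libraries move these counts by construction. For the scalings the cause was not tested.

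Of 922 alternative values of 77 named genes, 871 kept their direction and side of the threshold, 45 passed it only under the alternative and 6 reversed. The log2 ratio of Abcg8, 0.76, was -0.08 without the low sitosterol liver. That of Abcg5, 0.01, was -0.02 with size factors and with DESeq2, -0.05 with all 6 libraries, -0.48 without the stigmasterol liver, and it ran between -0.91 (without the low sitosterol liver) and 3.09 (without the high sitosterol liver) over the libraries left out. With 1 library on a side, the fit assumes that it varies like the other side. No paired analysis was possible, because each diet is represented by 1 mouse and no liver of a side has a partner on the other.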

Other observations

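Genes with sex-biased expression in mouse liver were described as 2 lists. Of 17 male-biased genes, 4 were lower without overlap, 0 were higher and 2 stood lower by 1.5-fold. The lower shares were 23.5% and 11.8%, against 18.9% and 2.12% of all genes. Serpina1e, a protease inhibitor of a family with near-identical copies, had 827 and 669 scaled CPM in the ergosterol and stigmasterol livers, against 7323 and 9036 in the low and high sitosterol livers. Selenbp2 had 50.3 and 90.1 against 616 and 259. Other male-biased genes varied within the sides, such as Hsd3b5 at 132 and 0.879 against 373 and 58.9. Of 9 female-biased genes, 1 stood higher (Acot3, which is also among the PPARA targets), 1 stood lower at any gap and 7 overlapped. The shares were 11.1% in each direction, against 19.7% and 18.9% of all genes. Acot3 had 22.3 and 5.87 against 0.519 and 0.631, below 1 CPM in both sitosterol livers, so it was counted only through its higher side. The female-biased Cyp2a4 paired the livers another way, at 0.851 and 158 against 1.19 and 199, so that the stigmasterol and high sitosterol livers were the high ones.

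Of 19 CAR and PXR targets tested, 4 stood higher (21.1%), 3 lower (15.8%) and 12 overlapped, near the 19.7% and 18.9% of all genes. By 1.5-fold, 2 stood higher (10.5%, against 3.02% of all genes). Drug metabolism genes included Cyp3a11, a PXR target, at 1150 and 2635 scaled CPM in the ergosterol and stigmasterol livers, against 613 and 563 in the low and high sitosterol livers. Cyp2c40 stood lower, at 14.5 and 2.85 against 63.3 and 112, as did Cyp2c69, its close relative. Among interferon-stimulated genes, Rsad2 alone of 19 stood apart by 1.5-fold, at 6.74 and 18.8 against 4.30 and 3.87. That is 5.26% higher, against 3.02% of all genes. Of 5 B and plasma cell genes tested, 2 stood higher by 1.5-fold (40%, against 3.02% of all genes) and 3 overlapped. The summed level of the list overlapped between the sides, at 29.6 and 76.1 against 18.6 and 36.6. The B cell receptor genes Cd79a and Cd79b stood higher at low levels, with Cd79a at 1.23 and 1.60 against 0.198 and 0.435. Cd79a was below 1 CPM in both sitosterol livers, so it had to be high on the other side to be counted.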
